A study of Mus musculus with 2 samples.

Results

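The 5 genes Plpp1 to Plpp5, which encode the lipid phosphate phosphatases, were followed through the cell types of the lactating mouse mammary gland. They were taken by gene symbol and make up 5 of the 33943 genes in the deposited gene list. The family was chosen by values of these data, since Plpp4 led a cluster of milk-secreting nuclei and was lower in the knockout group. Those values therefore stand as descriptions with no test, as do all levels by cell type or cluster, while Plpp1, Plpp2, Plpp3 and Plpp5 were tested between genotypes.

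Nuclei of the inguinal mammary fat pad of 8 lactating dams, taken on postnatal day 11, were sequenced as 1 pooled single-nucleus RNA library. A second library of hashtags, DNA barcodes that mark the animal a nucleus came from, told the dams apart. There were 4 dams labelled with an adipocyte-specific knockout of the oxytocin receptor gene Oxtr (KO) and 4 dams labelled Oxtr flox. The hashtags of the second group are named WT and were taken as the Oxtr flox dams, since the labels hold no other genotype. No source used here names what drove the deletion. Dams came from cages set up with mice 8 weeks old and ate standard chow, and litter sizes were evened out on postnatal day 1. The labels list litters of 3 to 5 pups without tying a litter to a dam. Pellets of some samples were washed against free RNA, and which ones is not said.

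Lipid phosphate phosphatases are membrane enzymes that remove phosphate groups from lipids. Plpp1, Plpp2 and Plpp3 can act at the cell surface on lysophosphatidic acid (LPA), sphingosine 1-phosphate (S1P) and phosphatidic acid, and so limit signalling through the LPA and S1P receptors. Plpp4 and Plpp5 are more distant relatives that act on diacylglycerol pyrophosphate and phosphatidic acid, and removal of phosphate from phosphatidic acid yields diacylglycerol, a precursor of the triglyceride of milk fat.

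The start regions of Plpp4 and Plpp3 are shown because these members led the family by UMIs in the 7 cell types, and they differ in base make-up. Each is the RefSeq stretch from 250 bases before to 50 bases after the gene start, on the plus strand of GRCm38.p6, with every CG in capitals. Plpp4 has chr7:129256844-129257143 and Plpp3 has chr4:105157097-105157396.
Plpp4: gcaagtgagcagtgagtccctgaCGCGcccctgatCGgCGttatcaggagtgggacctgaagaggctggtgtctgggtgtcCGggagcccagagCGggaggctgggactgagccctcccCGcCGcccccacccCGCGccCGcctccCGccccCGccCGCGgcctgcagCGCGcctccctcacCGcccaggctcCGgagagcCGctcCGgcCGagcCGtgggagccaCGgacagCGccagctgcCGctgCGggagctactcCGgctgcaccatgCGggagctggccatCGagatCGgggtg
Plpp3: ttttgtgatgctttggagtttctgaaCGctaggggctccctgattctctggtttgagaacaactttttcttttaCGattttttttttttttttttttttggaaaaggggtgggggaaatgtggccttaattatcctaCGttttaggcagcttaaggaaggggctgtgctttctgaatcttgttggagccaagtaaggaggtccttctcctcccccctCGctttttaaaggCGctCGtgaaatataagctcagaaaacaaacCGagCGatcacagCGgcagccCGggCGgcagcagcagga
The Plpp4 stretch held 31 CG pairs and 74.3% G and C, and the Plpp3 stretch held 11 CG pairs and 46% G and C. Over 32851 start regions of the same length the medians were 7 CG pairs and 52.7% G and C. The motif TTCNNNGAA, which STAT factors bind and which reads the same on both strands, was in none of the 3 member stretches at hand (Plpp2, Plpp3 and Plpp4) and in 8.30% of all start regions. That says only that these letters are not in this window.

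The 8 dams gave 1200 to 1991 nuclei each, with 5842922 to 10964520 UMIs (unique molecular identifiers, which count single RNA molecules) per dam and a median of 4342 to 5610 UMIs per nucleus. Named from marker genes, 9686 nuclei were secretory luminal, the cells that make milk, 937 myoepithelial, 701 fibroblast, 416 macrophage, 368 adipocyte, 267 luminal progenitor and 207 vascular endothelial. These are the nuclei with a called dam, on which all levels by dam rest. With the nuclei of no called dam there were 10813 secretory luminal, 1873 myoepithelial, 1732 fibroblast and 634 endothelial nuclei. The loss was thus uneven over types, and also over depth. The 634 endothelial nuclei had a median of 1698.5 UMIs, and the 207 with a dam 5371 UMIs. In adipocyte nuclei the Oxtr count did not fall with the KO label: KO1 to KO4 had 4, 5, 5 and 3 Oxtr UMIs there, and each of the 4 WT dams had 1. No source used here says whether the counted stretch of Oxtr lies in the deleted part. In myoepithelial nuclei, where the gene is highly used, Oxtr was at 178.3 to 209.1 CPM in KO and 221.1 to 259.0 CPM in WT dams, and 1.64% of the 6753 genes tested there had every KO dam below every WT dam. KO below means the dams labelled so.

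Levels are in CPM, the UMIs of a gene per 1000000 UMIs summed over the nuclei of a type in a dam. Fewer transcripts per nucleus and fewer nuclei using the gene cannot be told apart in such a sum.

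The members did not all have their highest mean level in the same cell type. Plpp3 was highest in fibroblasts and myoepithelial cells, Plpp1 in vascular endothelium and Plpp4 in secretory luminal cells. UMIs of Plpp5 were found in all 7 types, as were those of Plpp1, Plpp3 and Plpp4. Plpp2 had at most 6.02 CPM on average in any of them. The summed level of the 5 members was 917 ± 116 CPM in fibroblasts, 748 ± 157 CPM in myoepithelial cells and 669 ± 184 CPM in vascular endothelium (mean ± SD, n = 8 dams, as for all means over types below). It was 338 ± 155 CPM in secretory luminal cells, 304 ± 61.8 CPM in adipocytes, 285 ± 76.9 CPM in macrophages and 222 ± 63.4 CPM in luminal progenitors.

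**Figure D1:**
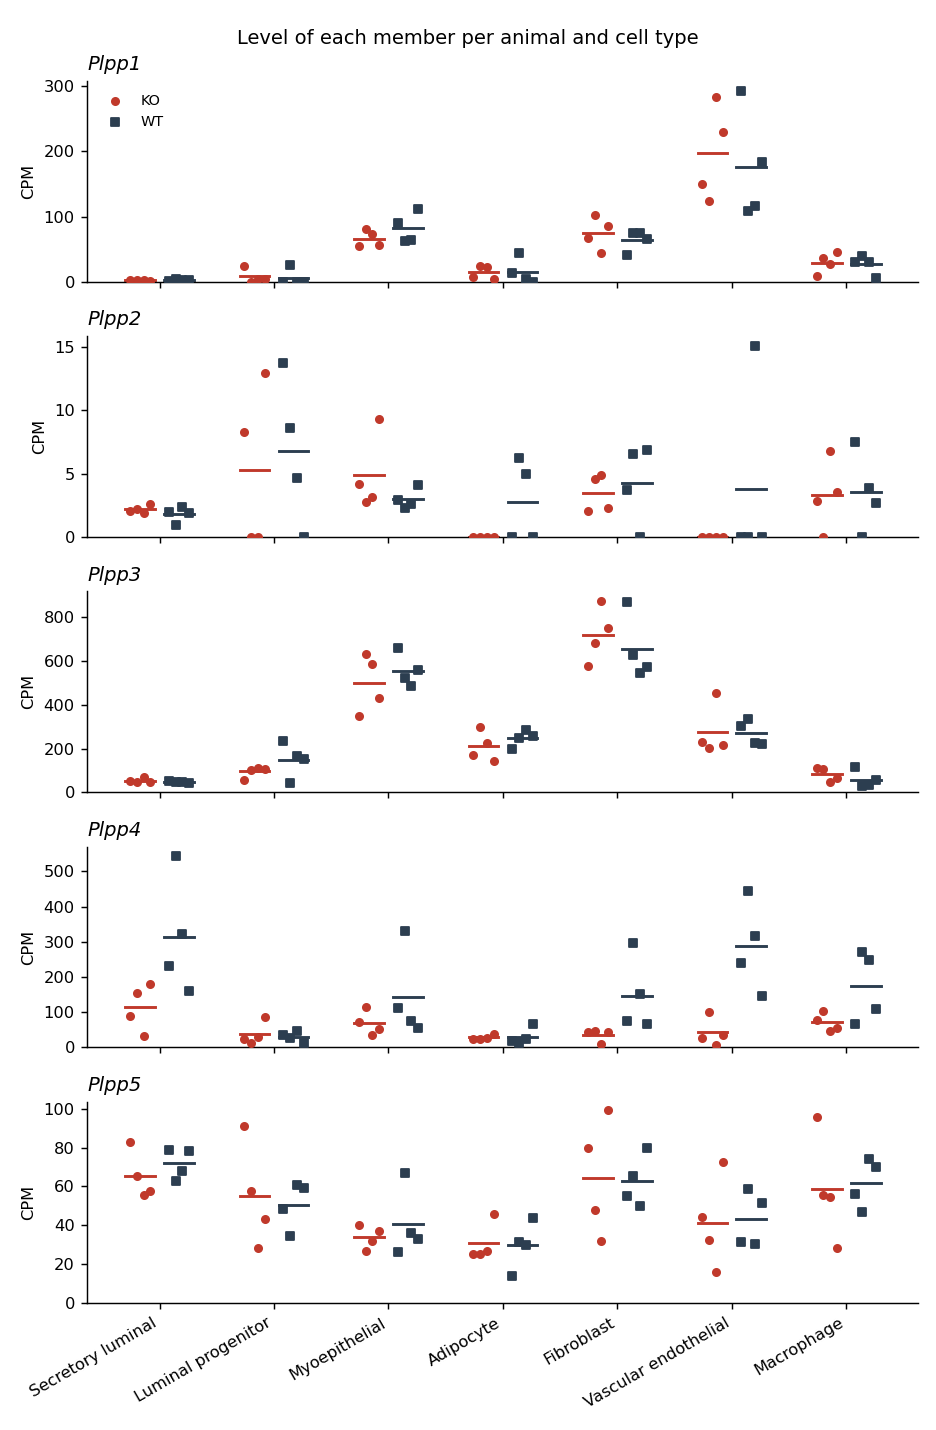
Level in CPM (vertical axes, linear, a scale for each gene) of the 5 members in 7 cell types, with KO as red circles left of WT as dark squares, 1 point per dam and a line at each mean of 4 dams. Over the 8 dams Plpp3 peaks in fibroblasts at 689 CPM, Plpp1 in vascular endothelium at 186 CPM and Plpp4 in secretory luminal nuclei at 214 CPM.

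Plpp3, an LPA-degrading enzyme that mouse embryos need for blood vessel formation, reached 689 ± 132 CPM in fibroblasts. KO dams had 577.5, 681.9, 876.3 and 750.5 CPM there, against 872.5, 629.7, 546.7 and 574.3 CPM in WT dams. The groups overlapped over nearly their whole range. In myoepithelial cells, which squeeze milk out of the alveoli, Plpp3 was at 528 ± 104 CPM, lower than in the fibroblasts of the same dam in 8 of 8 dams, although the ranges over dams overlapped. KO dams had 348.3, 630.9, 586.1 and 429.7 CPM and WT dams 659.8, 520.6, 487.6 and 558.1 CPM, again with overlap.

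Vascular endothelium (274 ± 87.4 CPM) and adipocytes (228 ± 54.2 CPM) came next for Plpp3 and did not differ beyond their spread, with endothelium higher in 5 of 8 dams. In adipocytes, the cells named in the knockout label, KO dams had 171.5, 297.5, 227.3 and 141.6 CPM and WT dams 199.0, 249.3, 282.6 and 256.6 CPM. The lowest and the highest value were both from KO dams. Luminal progenitors were at 123 ± 61.6 CPM, macrophages at 70.0 ± 35.3 CPM and secretory luminal cells at 50.2 ± 8.30 CPM, and these neighbours overlapped. Plpp3 had a UMI in 82.0% of fibroblast nuclei (median depth 3742 UMIs) and in 21.1% of secretory nuclei (median depth 5261 UMIs). With each nucleus thinned to 1000 UMIs, which left out 7 fibroblast nuclei and 1 secretory nucleus, the shares were 45.4% and 4.48%. The lowest thinned share was 3.92%, in macrophages.

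Fibroblasts fell into 2 clusters, between which Plpp3 and Plpp1 ran in opposite directions. One was led by Fndc1 and also had the fibroblast marker Pi16 among its leading genes, with 171 nuclei of the dams. The other was led by the laminin gene Lama2, with 530 nuclei. Plpp3 was at 1055 ± 217 CPM in the Fndc1-led and 578 ± 120 CPM in the Lama2-led cluster, higher in the Fndc1-led one in 8 of 8 dams. Plpp1 was at 22.6 CPM (SD 28.2) in the Fndc1-led and 84.2 CPM (SD 20.5) in the Lama2-led cluster, higher in the Lama2-led one in 8 of 8 dams. The lower Plpp1 value rests on 18 UMIs, from 14 to 36 nuclei per dam. Plpp5 was alike, at 62.1 CPM (SD 30.6) and 63.5 CPM (SD 23.7).

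**Figure D2:**
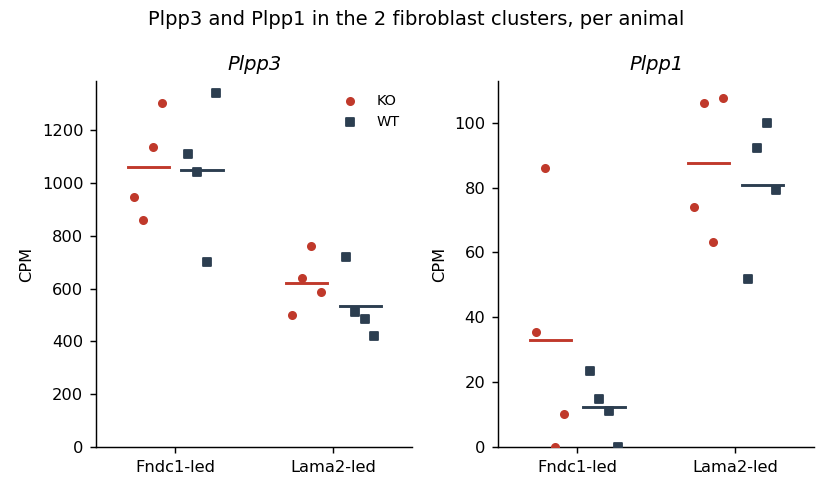
Plpp3 and Plpp1 in CPM (vertical axes, linear) in the Fndc1-led and the Lama2-led fibroblast cluster, with KO as red circles left of WT as dark squares, 1 point per dam and a line at each mean of 4 dams. Plpp3 averages 1055 CPM in the Fndc1-led and 578 CPM in the Lama2-led cluster over 8 dams, and Plpp1 22.6 and 84.2 CPM.

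Plpp1, a broadly used enzyme that degrades LPA and S1P, was highest in vascular endothelium at 186 ± 74.6 CPM. KO dams had 149.8, 124.3, 283.2 and 230.3 CPM there, against 293.2, 108.8, 115.5 and 184.1 CPM in WT dams. Both groups held high and low dams and overlapped. Endothelium exceeded the myoepithelial level (74.0 ± 19.5 CPM) in 8 of 8 dams, although the ranges overlapped, and myoepithelial cells and fibroblasts (69.4 ± 20.4 CPM) did not differ beyond their spread. Macrophages (28.0 ± 14.3 CPM) were below fibroblasts in 8 of 8 dams. Adipocytes (15.1 ± 14.5 CPM) and luminal progenitors (7.35 ± 11.2 CPM) rest on 28 and 8 UMIs in all, and secretory luminal cells (2.77 ± 0.830 CPM) on 158. Plpp1 had a UMI in 45.9% of endothelial nuclei (median depth 5371 UMIs) and 1.49% of secretory nuclei, or 18.5% and 0.279% after thinning.

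Plpp2, the third of the enzymes that can act at the cell surface, had only 157 UMIs in the 7 types. Its mean level lay between 1.40 CPM in adipocytes and 6.02 CPM in luminal progenitors, and no neighbours in that order differed beyond their spread. It had no UMI in adipocytes of 6 dams, in endothelium of 7 and in luminal progenitors of 3. A count of 0, which allows up to 3 UMIs, left room for 8.34 to 18.7 CPM per dam in adipocytes and 12.0 to 36.4 CPM in endothelium, counting error only. Low use of the gene was thus not detectable there.

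Plpp5 was at 68.6 ± 10.3 CPM in secretory luminal cells, 63.5 ± 21.8 CPM in fibroblasts, 60.0 ± 20.1 CPM in macrophages and 52.8 ± 19.5 CPM in luminal progenitors. Endothelium had 42.04 CPM, myoepithelial cells 37.1 ± 12.9 CPM and adipocytes 30.1 ± 10.5 CPM, and each step in this order was smaller than the spread over dams. The ends of the order did not overlap, with 55.4 to 82.9 CPM in secretory luminal cells and 13.6 to 45.8 CPM in adipocytes. In secretory nuclei KO dams had 82.9, 65.5, 55.4 and 57.6 CPM and WT dams 79.0, 62.8, 67.8 and 78.2 CPM, with overlapping groups.

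Which member led a cell type depended on the scale. By UMIs, Plpp3 made up 75.0 ± 9.80% of the family in fibroblasts, 74.7% in adipocytes, 71.1% in myoepithelial cells, 53.2% in luminal progenitors and 41.6% in endothelium, where Plpp1 made up 28.9%. Plpp4 made up 56.7 ± 19.3% in secretory luminal cells and 39.9% in macrophages. Nuclear UMIs also come from introns, so long genes can gain more of them, and the members span 67.1 kb (Plpp1), 7.37 kb (Plpp2), 75.4 kb (Plpp3), 134 kb (Plpp4) and 4.85 kb (Plpp5). Per kb of gene span, Plpp5 had the largest mean share in all 7 types, between 44.3 ± 9.19% in myoepithelial cells and 84.7 ± 5.88% in secretory luminal cells. On that scale Plpp3 held 41.6 ± 9.09% in myoepithelial cells, so the lead of Plpp5 there was within the spread. Plpp3 held 38.4% in fibroblasts, and Plpp4 held 9.29% in secretory luminal cells.

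**Figure D3:**
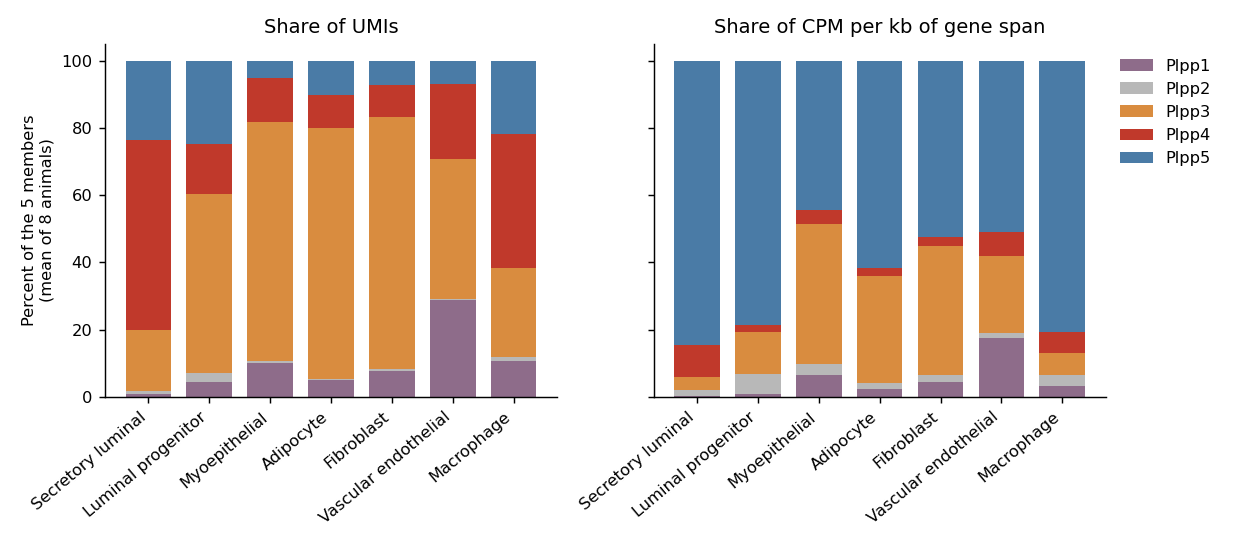
Share of each member in the family total (vertical axis, percent, mean of 8 dams) in 7 cell types, by UMIs on the left and by CPM per kb of gene span on the right. Plpp3 takes 75.0% of UMIs in fibroblasts and Plpp4 56.7% in secretory luminal cells, whereas per kb Plpp5 takes the largest part of each bar.

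Plpp4 was highest on average in secretory luminal nuclei, where it varied widely from dam to dam. KO1 to KO4 had 90.4, 154.4, 33.1 and 179.7 CPM, and WT1 to WT4 had 230.2, 543.2, 322.1 and 159.7 CPM. KO3 was lowest and WT2 highest, and the groups overlapped because WT4 lay below KO4. The means were 114 ± 66.0 CPM in KO and 314 ± 167 CPM in WT (SD, n = 4 each), with a log2 fold change of -1.49 ± 0.52 (SE, edgeR fit). It was -1.17 without KO3 and -1.05 without WT2. Plpp4 had a UMI in 46.1% of secretory nuclei, or 17.5% after thinning, against 7.34% and 1.63% in adipocytes (median depths 5261 and 4309.5 UMIs).

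The secretory luminal nuclei formed 4 clusters, and KO3 and WT2 were the extremes of Plpp4 in the 3 that all dams filled. In the cluster that Plpp4 itself led, KO dams had 98.1, 171.9, 64.9 and 218.4 CPM and WT dams 242.5, 543.9, 343.6 and 185.8 CPM. In the cluster led by Doc2b, a gene of vesicle release, KO dams had 69.9, 122.6, 28.1 and 143.8 CPM and WT dams 194.9, 528.4, 255.5 and 150.2 CPM. Here KO4 lay just under WT4, while in the Plpp4-led cluster it lay above. In the cluster led by Top2a, a topoisomerase gene of dividing cells, the means were 115 ± 71.2 CPM in KO and 295 ± 189 CPM in WT (SD, n = 4 each), with KO4 above WT4. The Plpp4-led cluster held 38.9 ± 15.3% of secretory nuclei in KO and 61.1 ± 29.95% in WT dams, and a size set by a gene that differs is no result. The cluster led by the fatty acid desaturase gene Scd3 had 272 of its 359 nuclei from KO3. Without it KO3 stood at 36.8 CPM in secretory nuclei and the log2 fold change was -1.47. Plpp3 means lay between 46.4 and 64.7 CPM over the 4 clusters and Plpp5 means between 60.6 and 71.9 CPM.

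**Figure D4:**
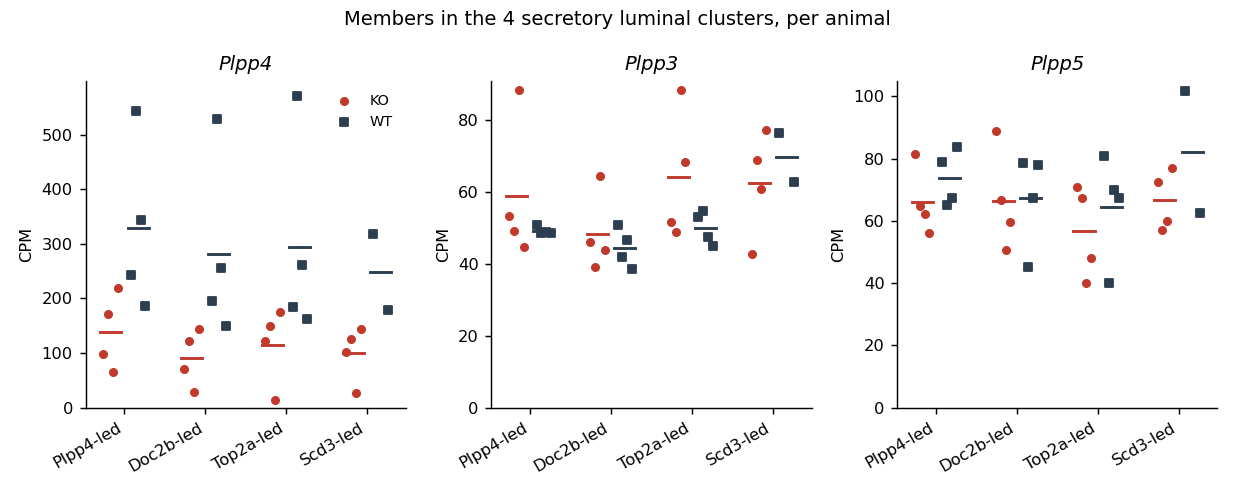
Plpp4, Plpp3 and Plpp5 in CPM (vertical axes, linear) in the 4 secretory luminal clusters, named by their leading gene, with KO as red circles left of WT as dark squares, 1 point per dam and a line at each mean. Mean Plpp4 in the Plpp4-led cluster is 138 CPM in KO and 329 CPM in WT, and the Scd3-led cluster shows 4 KO and 2 WT dams.

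Plpp4 UMIs were found in the other types too, at 165 ± 156 CPM in endothelium, 123 ± 87.5 CPM in macrophages, 105 ± 94.8 CPM in myoepithelial cells, 91.6 ± 92.6 CPM in fibroblasts, 33.6 ± 24.0 CPM in luminal progenitors and 29.4 ± 16.3 CPM in adipocytes. None of these neighbours differed beyond its spread. Secretory nuclei (214 ± 159 CPM) exceeded endothelium in 7 of 8 dams, although the ranges overlapped. Free RNA of secretory cells can enter any droplet, so Plpp4 was set against the secretory nuclei of the same dam, beside 8 other secretory marker genes (Btn1a1, Cel, Elf5, Folr1, Lao1, Muc15, Slc28a3 and Xdh) and the summed milk protein genes. In endothelium Plpp4 stood at 64.4% of its secretory level, the markers at a median of 78.7% and the milk genes at 99.2%. In fibroblasts these were 38.4%, 49.5% and 69.6%. In macrophages they were 69.4%, 56.9% and 78.9%, in myoepithelial cells 56.9%, 49.7% and 76.9%, and in adipocytes 25.6%, 26.2% and 52.7%. Plpp4 in these 5 types lay, on the mean of 8 dams, within the range of the markers or just below it. Split by genotype, Plpp4 in endothelium averaged 34.5% in KO and 94.2% in WT dams, where the lowest marker over all 8 dams was at 66.5%. In fibroblasts it averaged 33.0% in KO and 43.8% in WT dams, with the lowest marker at 40.0%. The markers were not split by genotype. The Plpp4 counts are not read as expression by these 5 types, nor as free RNA alone. The part of free RNA in them was not tested. In luminal progenitors Plpp4 stood at 26.2%, below the lowest marker (49.8%), and 1 of the 8 markers, Elf5, is also on the marker list of that type. By contrast, Plpp3 in fibroblasts stood at 1378% of its secretory level and Plpp1 at 2591%. Plpp5 stood at 93.4% of its secretory level in fibroblasts, 86.4% in macrophages and 75.5% in luminal progenitors. It was at 62.5% in endothelium, 55.6% in myoepithelial cells and 45.3% in adipocytes. The part of free RNA in Plpp5 was not tested either, so its counts outside secretory nuclei are not read as expression by those types.

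**Figure D5:**
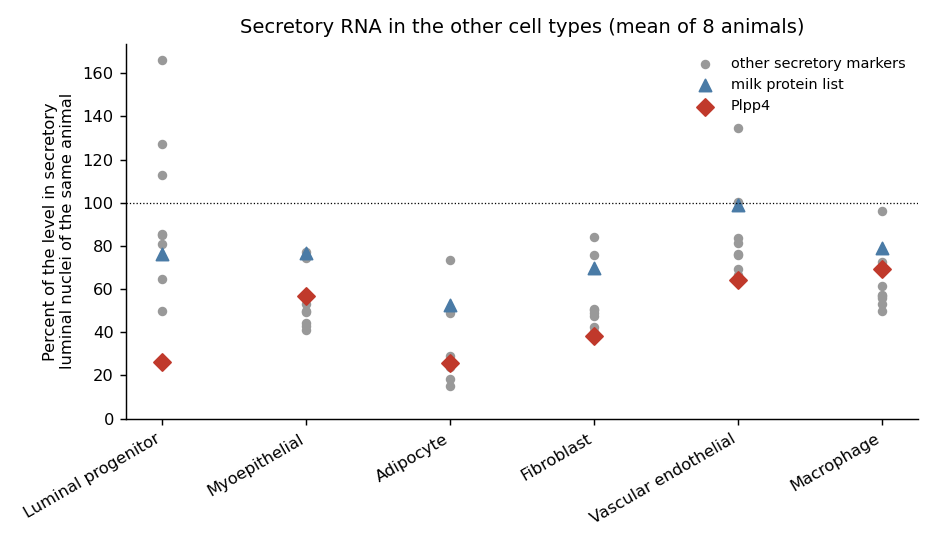
Level in 6 cell types as a percent of the level in secretory luminal nuclei of the same dam (vertical axis, linear, mean of 8 dams) for Plpp4 (red diamonds), 8 other secretory markers (grey points) and the milk protein list (blue triangles), with a dotted line at 100%. Plpp4 lies within or just below the grey points in 5 types and well below them in luminal progenitors, at 26.2%. The endothelial point pools 34.5% in KO and 94.2% in WT dams.

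Between genotypes, the mean of Plpp4 was lower in KO in 5 of these 6 types and higher in luminal progenitors. In endothelium KO dams had 26.4, 100.3, 7.87 and 36.4 CPM, from 6, 25, 1 and 3 UMIs, and WT dams had 240.9, 443.6, 316.5 and 147.3 CPM, from 23, 53, 63 and 20 UMIs. Every KO dam lay below every WT dam, as was so for 1.1% of the 2362 genes tested there, and the log2 fold change was -2.59 ± 0.48 (SE), or -3.68 without KO2. In fibroblasts KO dams had 42.9, 47.7, 9.71 and 43.9 CPM and WT dams 73.6, 296.9, 152.2 and 66.1 CPM. Here too every KO dam lay below every WT dam, as was so for 1.3% of 6402 genes. The log2 fold change was -1.95 ± 0.44 (SE), or -1.38 without WT2. Macrophages had -1.17 ± 0.39 and myoepithelial cells -0.95 ± 0.42 (SE), with overlapping groups, and the myoepithelial value was -0.16 without WT2, -0.53 without the highest 5% of Scrublet doublet scores and -0.37 with hashtags scaled within barcodes. In adipocytes, where Plpp4 was too low for the count filter, KO averaged 28.6 ± 6.0 CPM and WT 30.2 ± 24.1 CPM (SD, n = 4 each). In luminal progenitors, also below the filter, KO averaged 37.6 ± 33.0 CPM and WT 29.6 ± 14.6 CPM.

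As a percent of the secretory level of the same dam, endothelial Plpp4 was at 29.2, 64.9, 23.8 and 20.2% in KO dams and 104.6, 81.7, 98.3 and 92.2% in WT dams. The groups did not overlap, so the mean of 8 dams above pools unlike groups. In fibroblasts the means were 33.0% in KO and 43.8% in WT. The other 4 types ran the other way, with means of 36.4% in KO and 14.7% in WT for adipocytes, 42.02% and 10.4% for luminal progenitors, 82.4% and 56.4% for macrophages, and 72.3% and 41.4% for myoepithelial cells, each with overlapping groups. The milk protein genes took 15.5 ± 3.87% of endothelial UMIs in KO and 14.4 ± 1.75% in WT, and 10.6 ± 1.87% of fibroblast UMIs in KO and 10.3 ± 0.25% in WT (SD, n = 4 each). The part of free RNA in these differences was not tested either.

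None of Plpp1, Plpp2, Plpp3 and Plpp5 passed the test between genotypes. Of their 28 combinations with a cell type, 16 passed the count filter, and edgeR's quasi-likelihood test with Benjamini-Hochberg adjustment over all genes of the type called 0. None of the 28 had groups that did not overlap, beside 4.04% of genes tested in adipocytes, 3.12% in fibroblasts, 3.22% in luminal progenitors, 3.18% in macrophages, 4.07% in myoepithelial cells, 3.62% in secretory nuclei and 2.88% in endothelium. The number with an unadjusted p under 0.05 was 0, and DESeq2 called 0. Over all genes edgeR called 0% in 6 types and 0.0148% in myoepithelial cells, so no calls among the members is near the background. The p-values set the difference between genotypes against the spread between these dams. The smallest adjusted p was 0.772, for Plpp1 in myoepithelial cells, with 66.1 ± 13.1 CPM in KO and 81.9 ± 23.4 CPM in WT (SD, n = 4 each; log2 fold change -0.33 ± 0.21, SE, edgeR).

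In secretory nuclei the log2 fold changes were 0.10 ± 0.13 for Plpp3, -0.17 ± 0.15 for Plpp5 and 0.27 ± 0.29 for Plpp2 (SE), with adjusted p of 0.844, 0.777 and 0.809 by edgeR. In adipocytes only Plpp3 passed the filter, with -0.24 ± 0.23 (SE, adjusted p = 0.839 by edgeR). In luminal progenitors Plpp3 was at 95.6 ± 25.3 CPM in KO and 150 ± 79.2 CPM in WT (SD, n = 4 each), with -0.63 ± 0.35 (SE, adjusted p = 0.932 by edgeR). In macrophages Plpp3 had 0.61 ± 0.40 (SE, adjusted p = 0.848 by edgeR), or 1.14 without WT1 and 0.36 without WT2.

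The other members were not shown to follow Plpp4 from dam to dam. Over the 8 dams in secretory nuclei, Pearson's r with Plpp4 was 0.47 for Plpp1, -0.62 for Plpp2, -0.38 for Plpp3 and -0.10 for Plpp5, with two-sided exact permutation p of 0.252, 0.203, 0.256 and 0.849, or 0.341, 0.341, 0.341 and 0.849 adjusted over the 4 pairs. Spearman's rho was 0.12, -0.05, -0.19 and 0.05 in the same order, with exact permutation p of 0.793, 0.935, 0.665 and 0.935, each 0.935 after adjustment. Without WT2 and WT3, the dams farthest from the median of Plpp4, r was -0.45, 0.25, -0.70 and 0.33 over 6 dams. The sign turned for Plpp1, Plpp2 and Plpp5, and that of Plpp3 turned to 0.18 without KO3 alone, so each of the 4 values rests on 1 or 2 dams. With 4 dams per genotype no r was computed within a genotype. In secretory nuclei Plpp1 had only 10 to 34 UMIs per dam and Plpp2 only 8 to 21. Counting error at such counts can hide a relation, so r could not decide the question for Plpp1 and Plpp2.

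Across the 7 cell types, levels on the log2(CPM + 1) scale gave Plpp4 an r of 0.51 with Plpp5, 0.16 with Plpp1, -0.06 with Plpp2 and -0.27 with Plpp3, and gave Plpp1 and Plpp3 an r of 0.74. These describe 7 points that share 1 library and its free RNA. Among 13098 genes, those most like Plpp4 were Rnf207, Slc7a2 and Ptprt (r = 0.99 each). Plpp1 was most like Spaar (0.99), Fut11 (0.98) and Mrpl23 (0.98), and Plpp3 most like Cdc16 (0.99), Ints8 (0.98) and Ech1 (0.97). Plpp2 was most like Trp53 (0.98), Atrip (0.98) and Anapc2 (0.97), and Plpp5 most like Rpain, Gm9530 and Dhrs11 (0.97 each). These are the highest of 13098 values on 7 points, with no test, so a high r is no evidence of shared control. Plpp2 had 157 UMIs in the 7 types, 109 of them in secretory nuclei, so its likeness rests on few counts in the others. Over the 8 dams in secretory nuclei, Fuca1 (0.97), H2aj (0.97) and Rell1 (0.95) came closest to Plpp4 among 8435 genes.

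Genes that make, sense or use the lipids the family acts on were spread over the same types (means of 8 dams). Enpp2, which encodes autotaxin, the main producer of extracellular LPA, was highest in adipocytes at 220 ± 94.8 CPM and next in fibroblasts at 104 ± 14.9 CPM. Fibroblasts, the type with most Plpp3, also had the most LPA receptor Lpar1 (343 ± 61.6 CPM) and phospholipase Pla1a (181 ± 43.6 CPM). The S1P receptor S1pr1 stood at 88.4 ± 47.0 CPM in endothelium and at most 11.1 CPM in the other 6 types. Myoepithelial cells had the most Sphk1, a kinase that makes S1P (54.8 ± 16.3 CPM), and luminal progenitors the most Spns2, an S1P exporter (94.6 ± 22.6 CPM). The diacylglycerol acyltransferases Dgat1 (579 ± 136 CPM) and Dgat2 (390 ± 128 CPM), which complete triglyceride, were highest in adipocytes. Lpin1, a phosphatidic acid phosphatase inside the cell, was highest in secretory luminal cells at 2400 ± 516 CPM.

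Between genotypes, edgeR called 0 genes of the 4 lists of relatives, receptors, LPA and S1P enzymes and phosphatidate enzymes in any of the 7 types. These were 128 tests on 43 of the 58 listed genes, of which 19 (14.8%) had an unadjusted p under 0.05, beside 2801 of 40188 tests on all genes (6.97%), and DESeq2 called 0. In adipocytes 6 of 13 listed genes had an unadjusted p under 0.05, beside 290 of all 3810 genes tested. Acer2, a ceramidase gene, was at 127 ± 22.3 CPM in KO and 44.1 ± 32.7 CPM in WT (SD, n = 4 each; log2 fold change 1.52 ± 0.36, SE, adjusted p = 0.224 by edgeR). Agpat2 and Gpam, which act in the making of phosphatidic acid, were at 135 ± 30.3 and 330 ± 41.6 CPM in KO, against 276 ± 92.7 and 629 ± 203 CPM in WT. Their log2 fold changes were -1.04 ± 0.25 and -0.94 ± 0.23 (SE), each with an adjusted p of 0.235 by edgeR. Without WT4, Acer2 (2.16), Agpat2 (-1.16) and Gpam (-1.11) passed, with adjusted p of 0.00852, 0.0354 and 0.0209 by edgeR. Calls over all genes in adipocytes then rose from 0 to 47, among them 1 gene of the makers list and 2 of the phosphatidate list. In the fit of all dams 13 listed genes stood among the 3810 tested. Whether the lists gained more calls than other genes was not tested. Leaving out any other dam did not make them pass. The LPA receptor Lpar6 (-0.71) and Enpp2 (-0.56) had adjusted p of 0.419 and 0.683 by edgeR.

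In secretory nuclei Pld1, a phospholipase that makes phosphatidic acid, was at 29.9 ± 8.43 CPM in KO and 87.1 ± 48.4 CPM in WT (SD, n = 4 each; log2 fold change -1.60 ± 0.44, SE, adjusted p = 0.537 by edgeR). Without WT4 it passed, at -1.92 and an adjusted p of 0.0260 by edgeR, while calls over all genes there rose from 0 to 30. Leaving out any other dam did not make it pass. Agpat1 (-0.43), the LPA-producing lipase gene Liph (0.33), the ceramidase gene Asah2 (0.36), Lpar1 (0.47), Lpar6 (0.23), and the family relatives Plppr4 (0.63) and Plppr2 (-0.22) had adjusted p between 0.537 and 0.864 by edgeR. List medians of the log2 fold change were -0.03 for 19 phosphatidate genes, 0.14 for 10 LPA and S1P enzymes and carriers, 0.23 for 3 receptors and 0.09 for 3 relatives, against -0.01 for all 12843 genes.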

How the data were processed

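The deposited gene library holds counts of UMIs per gene and nucleus made by the authors with Cell Ranger 7.2.0 on GRCm39, per the submitters' processing notes, which also name fastp. The second library holds deposited counts of hashtag UMIs, and barcode and gene lists are deposited text files. From 21805 barcodes, 20854 were kept (at least 500 UMIs and 300 genes, at most 5% mitochondrial). Hashtags were called with HTODemux (Seurat 5.3.0), using 9 of 10 hashtags. This gave 13057 nuclei of 1 dam, while 2041 barcodes with several hashtags were removed as doublets and 5479 had none. Scrublet's automatic threshold called 0 doublets and so did not work.

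Nuclei were clustered with scanpy 1.11.5 (Leiden resolution 0.5) and named from marker lists. There were 4 naming rules tried in turn after clusters and marker levels had been seen, the last ones also after member levels by cluster had been seen. The first 3 named 11, 13 and 14 of 17 clusters, and 0, 1 and 3 of them secretory luminal. The last named 15, of which 4 were secretory luminal, and was kept because it named more clusters from their markers. The name of the Scd3-led cluster rests on a tie of 3 secretory with 3 Schwann cell markers, settled by the higher summed level, and no other rule named it; 13, 13 and 14 of the names under the others were the same. The macrophage cluster had 12 macrophage and 7 dendritic cell markers raised. At Leiden resolution 1.0, 191 nuclei of the dams were named macrophage, against 416 at 0.5. A cluster of 356 nuclei, with and without a called dam, led by Fyb, Klra2 and Lair1 then went unnamed. Names rebuilt in this way may differ from the authors' own.

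Counts were summed per dam and type and tested with edgeR 4.0.16 (TMM, filterByExpr, quasi-likelihood, Benjamini-Hochberg, threshold 0.05), on R 4.3.3, where 3 or more dams of each genotype had 10 or more nuclei of the type. DESeq2 1.42.0 was an alternative. The fit was tested on simulated data. Intervals and floors (3 counts) cover counting error only. Gene spans come from a GENCODE annotation of GRCm38, so no coordinates of the files' build are given. Members, lists and tests were chosen with earlier results of these data known. Named were all members, listed genes past the threshold, the 2 genes of smallest p per list in adipocyte and secretory nuclei, and the 3 genes most like each member (likeness on log2(CPM + 1), at least 100 UMIs, or 500 over dams); Enpp2, Lpar1, Pla1a, S1pr1, Sphk1, Spns2, Dgat1, Dgat2 and Lpin1 by type were picked after their values were seen.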

Additional observations from a re-analysis of the deposited data

Results flagged for a closer look

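Of 68 groups of 4 dams checked, 7 held a dam far from the other 3, where chance flags about 1 group in 20. In adipocytes KO4 was high for Plpp4 (37.5 CPM, 9 UMIs) and for Plpp5 (45.8 CPM, 11 UMIs), with the nearest KO dam at 26.7 CPM for both. In fibroblasts KO3 was low for Plpp4, at 9.71 CPM from 4 UMIs, with the nearest at 42.9 CPM. In luminal progenitors WT2 had 25.7 CPM of Plpp1 from 3 UMIs, with the other WT dams at 0, and KO1 was low for Plpp3 at 57.9 CPM from 7 UMIs. In endothelium WT3 held the only Plpp2 UMIs (15.1 CPM, 3 UMIs), and KO3 was high for Plpp3, at 456 CPM from 58 UMIs with the nearest at 229 CPM.

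A cluster led by Nrg3 and carrying neuron markers entered no comparison, because 241 of its 279 nuclei carried a hashtag named for an unknown sample. Its pooled levels were 31.4 CPM for Plpp1, 46.3 CPM for Plpp3, 13.6 CPM for Plpp4 and 46.9 CPM for Plpp5, each above the 1.78 CPM that a count of 0 would allow.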

How the results depend on the processing

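Depth limits Plpp2 in every type, also in secretory nuclei, where 8 dams hold 109 UMIs. It limits Plpp1 in adipocytes and luminal progenitors and, from dam to dam, in secretory nuclei. Plpp4 stayed lower in KO under each alternative that fitted it in the 5 types, between -1.80 and -1.05 in secretory nuclei, -3.68 and -2.20 in endothelium, -2.21 and -1.38 in fibroblasts, -1.43 and -0.88 in macrophages and -1.38 and -0.16 in myoepithelial cells. Macrophages gave no Plpp4 fit at Leiden resolution 1.0. Without the highest 5% of Scrublet scores Plpp3 was at 834 CPM in fibroblasts and 656 CPM in myoepithelial cells. Small log2 fold changes turned sign, never with a call: Plpp5 to -0.23 in fibroblasts and Plpp3 to 0.16 in endothelium (hashtags scaled within barcodes), Plpp5 to 0.13 in macrophages, Plpp1 to -0.0028 and Plpp3 to 0.048 in endothelium (Scrublet), Plpp3 to 0.040 there (library totals), and Plpp1 in secretory nuclei to -0.0025 (no count filter), -0.090 (Leiden resolution 1.0) and -0.021 (without the Scd3-led cluster, chosen after seeing the data). Genes called over all genes were 2, 1, 22 and 1 by DESeq2 in adipocytes, macrophages, secretory nuclei and endothelium. With no count filter they were 72, 20, 25, 78, 52 and 28 in adipocytes, fibroblasts, luminal progenitors, macrophages, myoepithelial cells and endothelium, with 1 and 2 genes of the makers and phosphatidate lists in adipocytes and 1 phosphatidate gene in myoepithelial cells. Leiden resolution 1.0 gave 1 in luminal progenitors and 1 in endothelium, and the myoepithelial call fell to 0 under Scrublet and under within-barcode scaling. The replicate block gave 10, 1, 22 and 1 in adipocytes, fibroblasts, myoepithelial cells and endothelium, with 1 phosphatidate gene in myoepithelial cells, and Plpp4 at -1.59 in secretory nuclei. Whether the replicate numbers pair the dams was not settled. Correlations between KO and WT dams of the same number were 0.23, -0.02, 0.24 and 0.14 in secretory nuclei. They were -0.06, -0.03, -0.03 and -0.02 in luminal progenitors, and in no type did all of them pass 0.1. Per kb of span, Plpp3 shares were 32.0% in adipocytes, 38.4% in fibroblasts, 12.5% in luminal progenitors, 41.6% in myoepithelial cells and 22.8% in endothelium, and Plpp4 shares 6.26% in macrophages and 9.29% in secretory nuclei. Leaving out a dam in turn gave 0 to 47 called genes in adipocytes, 0 to 7 in fibroblasts, 1 to 8 in myoepithelial cells, 0 to 30 in secretory nuclei (each highest without WT4) and 0 to 1 in endothelium. It gave 0 to 1 makers and 0 to 2 phosphatidate genes in adipocytes and 0 to 1 phosphatidate genes in secretory nuclei. Log2 fold changes ranged from -0.24 to 0.25 (Plpp5, fibroblasts), -0.44 to 0.20 (Plpp5, macrophages), -0.44 to 0.10 (Plpp5, myoepithelial cells), -0.18 to 0.29 (Plpp1, secretory), -0.091 to 0.40 (Plpp1, endothelium), -0.0027 to 0.16 (Plpp3, secretory) and -0.32 to 0.088 (Plpp3, endothelium). Pearson's r with Plpp4 ranged from -0.16 to 0.62 (Plpp1), -0.76 to 0.41 (Plpp2), -0.55 to 0.18 (Plpp3) and -0.45 to 0.17 (Plpp5). The causes were not tested.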

Other observations

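Small clusters were read from pooled nuclei, with 95% exact Poisson intervals for counting error only. Most of these nuclei had no called dam: 34 pericyte-like, 90 plasma cell-like and 83 T and NK-like nuclei came from the 8 dams. The part of free RNA in these levels was not tested, so Plpp4 is not read as expression by these cells. In the pericyte-like cluster of 146 nuclei, cells that wrap small vessels, Plpp3 was at 94.5 CPM (68.1 to 128), Plpp1 at 58.5 CPM (38.2 to 85.7) and Plpp4 at 115 CPM (85.4 to 151). In the plasma cell-like cluster of 241 nuclei Plpp4 was at 141 CPM (117 to 169) and Plpp5 at 70.1 CPM (53.2 to 90.6). In the T and NK-like cluster of 196 nuclei they were at 129 CPM (98.8 to 165) and 55.1 CPM (36.3 to 80.2). An unnamed cluster of 1213 nuclei led by mt-Nd4, with the milk gene Glycam1 and the haemoglobin gene Hbb-bs among its leading genes, had 159 CPM of Plpp4 (143 to 175) and 5.70 CPM of Plpp1 (3.11 to 9.56).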
